A study of Mus musculus with 4 samples.

Results

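The 10 integrin subunit genes Itga3, Itga4, Itga5, Itga6, Itga7, Itga9, Itgav, Itgb1, Itgb3 and Itgb5, 7 alpha and 3 beta subunits, were taken by gene name from the 19353 genes of the count table, and all 10 had a row. The cells were muscle satellite cells (MuSCs) of plantaris muscle from Pax7-CreERT2:Rosa-YFP mice, in which tamoxifen-induced Cre, driven by the Pax7 gene, turns on yellow fluorescent protein (YFP), in both groups alike. Plantaris muscle was overloaded by tenotomy, in which the distal tendons of gastrocnemius and soleus were cut, or was sham-operated with the tendons left whole. At 4 days after surgery YFP-labelled cells were sorted into tubes of 100 cells, and 2 sham and 2 overloaded libraries were sequenced by CEL-Seq2. CEL-Seq2 reads the poly(A) end of a transcript and tags each captured molecule with a unique molecular identifier (UMI), so that counts are of molecules and do not grow with transcript length. The age of the mice is not given in the labels, nor whether libraries of the same group were made from separate mice. The p-values therefore measure the spread between these libraries, which may be technical.

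Integrins are receptors of 1 alpha and 1 beta chain that bind the extracellular matrix outside the cell and actin, through linker proteins, inside it. The alpha chain largely sets the ligand, and most alpha chains of muscle cells pair with the chain encoded by Itgb1. A satellite cell lies between the myofibre and its basal lamina, where laminin is the main integrin ligand, and the alpha-7 chain encoded by Itga7 is the characteristic laminin-binding chain of skeletal muscle.

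Library totals were 269683 and 260488 UMIs in sham and 387955 and 483528 in overloaded. These totals correspond to 2697 and 2605 UMIs per sorted cell in sham and to 3880 and 4835 in overloaded tubes. Levels are given below as UMIs and as CPM, the UMIs scaled to a common total over the tested genes by the trimmed mean of M-values (TMM). The TMM factors were 0.909 and 0.908 for sham and 1.08 and 1.12 for overloaded libraries. A count of 3 in 1 library corresponded to 13.1 and 13.6 CPM in sham and to 7.80 and 6.08 CPM in overloaded libraries. For genes at 0 in a group, the floor used for folds was 3 UMIs over both libraries of the group together. Checked against the label, all 10 satellite cell markers had UMIs in all 4 libraries, with 118 and 107 UMIs of Pax7 in sham and 108 and 137 in overloaded tubes. After scaling, Pax7 was at 514 and 485 CPM in sham and at 281 and 277 CPM in overloaded libraries, a fall that is given below.

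The alpha subunit genes that fell and the beta subunit gene with the most UMIs are shown first with the 250 bases upstream of their RefSeq start sites (build GRCm38.p6), to set the genes that fell beside a gene that was not called. Letters in capitals are matches on either strand to the E-box CANNTG, the core site of myogenic bHLH factors, or to GGAATG, the core site of TEAD factors. The Itga5 sequence is chr15:103366792-103367041 on the minus strand, the Itgav sequence is chr2:83724147-83724396 on the plus strand, and the Itgb1 sequence is chr8:128685404-128685653 on the plus strand, each written 5′ to 3′.
Itga5: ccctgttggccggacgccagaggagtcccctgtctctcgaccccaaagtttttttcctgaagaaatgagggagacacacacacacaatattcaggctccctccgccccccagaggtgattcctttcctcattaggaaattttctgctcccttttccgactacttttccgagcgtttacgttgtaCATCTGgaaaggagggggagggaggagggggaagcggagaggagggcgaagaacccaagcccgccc
Itgav: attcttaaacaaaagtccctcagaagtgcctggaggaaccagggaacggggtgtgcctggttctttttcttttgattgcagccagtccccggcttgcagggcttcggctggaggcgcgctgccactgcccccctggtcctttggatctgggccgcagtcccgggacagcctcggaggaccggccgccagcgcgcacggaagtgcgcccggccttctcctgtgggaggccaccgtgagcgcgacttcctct
Itgb1: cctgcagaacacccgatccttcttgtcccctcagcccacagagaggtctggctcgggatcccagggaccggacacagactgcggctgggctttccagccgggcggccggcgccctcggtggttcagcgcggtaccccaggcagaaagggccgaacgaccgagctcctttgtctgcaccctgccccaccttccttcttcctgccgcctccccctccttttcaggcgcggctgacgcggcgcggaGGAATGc
The Itga5 sequence held 1 E-box and no GGAATG, the Itgav sequence held neither, and the Itgb1 sequence held 1 GGAATG next to the start site and no E-box. Over the 8 promoters of 7 of the integrin genes (promoters of Itga6, Itga7 and Itgb3 were not analysed here), 6 held CANNTG, 3 held its subset CAGCTG and 1 held GGAATG. Of all 32851 promoters of the RefSeq table, 66.2% held CANNTG, 13.0% held CAGCTG and 12.6% held GGAATG. The GC content was 55.6% for Itga5, 64.4% for Itgav and 68% for Itgb1, with a median of 52.4% over all promoters. These matches describe the letters of the window and were not tested as binding sites.

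Of the 10 integrin genes, 6 passed the filter on low counts and 4 (Itga3, Itga4, Itga9 and Itgb3) did not. In overloaded MuSCs Itga7 and Itga6 rose, Itga5 and Itgav fell, and Itgb1 and Itgb5 were not called (edgeR's quasi-likelihood test, Benjamini-Hochberg adjusted p under 0.1 over 7228 genes). The fall of Itgav turned into a rise of 0.51 (log2), which was not called, when UMIs per tube were compared without scaling. The background of this comparison was high, with 25.8% of all genes tested called higher, 26.3% called lower and 52.1% called in either direction, so that 2 higher and 2 lower of 6 do not set the integrin genes apart as a group. Groups were fully separated for 2 of the tested integrin genes that were higher and 2 that were lower, against 37.5% of all genes tested that lay higher and 35.4% that lay lower in this way. The median log2 fold change was 0.02 for the 6 tested integrin genes and 0.05 for all genes tested. The levels of each gene in each library are shown by the plot of the 10 genes.

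**Figure D1:**
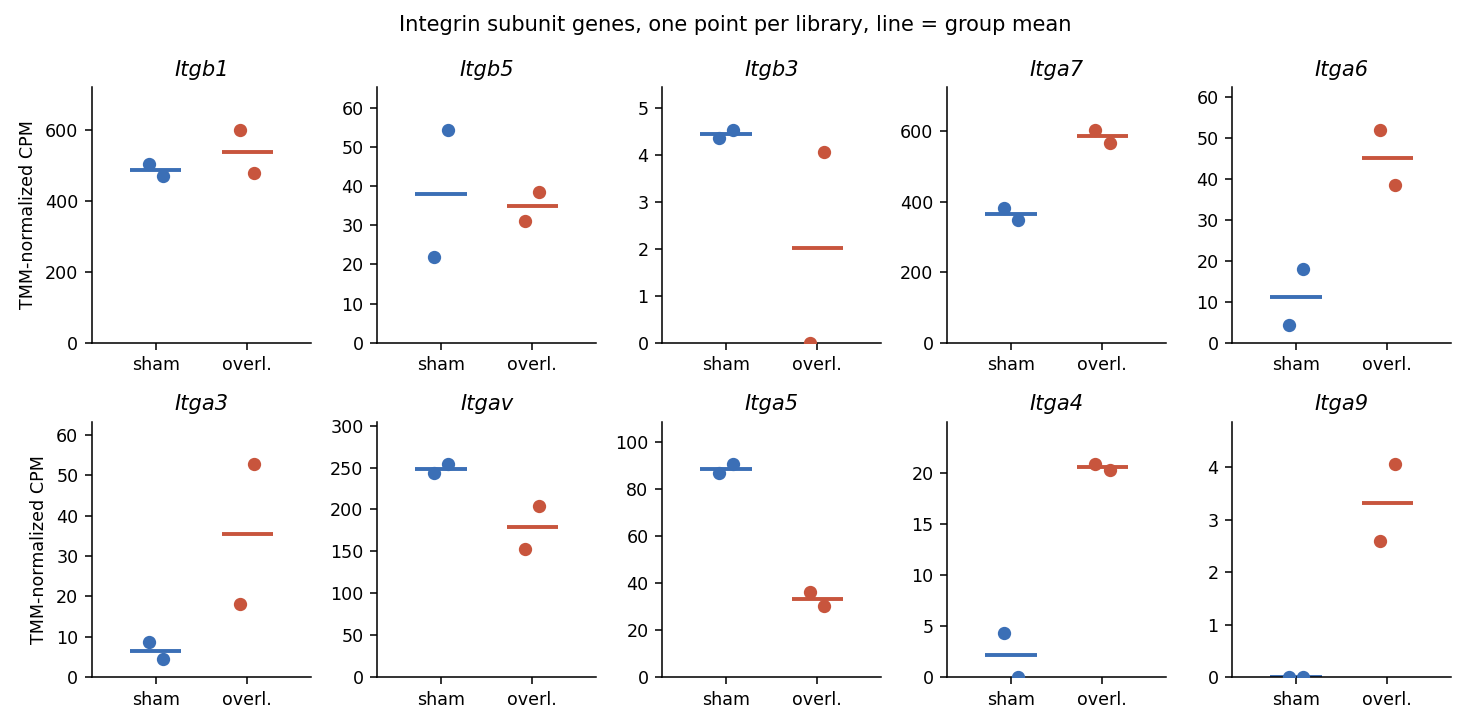
TMM-normalized CPM of the 10 integrin subunit genes in the 2 sham (blue) and 2 overloaded (red) libraries, with 1 point per library, a line at each group mean and a vertical axis that starts at 0 and differs between genes. Itga7 and Itga6 lie higher and Itga5 and Itgav lower in both overloaded libraries than in both sham libraries, whereas the groups overlap for Itgb1 and Itgb5.

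Itgb1 encodes the shared beta-1 chain and had the most UMIs over the 4 libraries, 687 against 677 for Itga7 (chr8:128685654-128733200, plus strand, GRCm38, 16 exons in its longest transcript). It had 116 and 104 UMIs in the sham libraries and 231 and 236 in the overloaded libraries. After scaling these were 505 and 471 CPM in sham and 601 and 478 CPM in overloaded libraries, so that the groups overlapped. The means were 488 ± 23.9 and 539 ± 86.8 CPM (SD, n = 2 each), with a log2 fold change of 0.14 (SE 0.17, 95% confidence interval -0.23 to 0.50, adjusted p = 0.543). A rise of up to 0.50 or a fall of up to 0.23 on the log2 scale was therefore compatible with these libraries. Without overloaded replicate 2, Itgb1 was called higher (0.34, adjusted p = 0.067), and without overloaded replicate 1 the estimate was -0.01 (adjusted p = 0.969). In UMIs per tube, without scaling, Itgb1 was called higher (1.09).

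Itga7, the laminin-binding chain of skeletal muscle, had fewer UMIs than Itgb1 in both sham libraries and more in both overloaded libraries (chr10:128933818-128958282, plus strand, 25 exons). It had 88 and 77 UMIs in sham and 232 and 280 in overloaded libraries, or 383 and 349 CPM against 603 and 567 CPM. Both overloaded libraries lay above both sham libraries, with means of 366 ± 24.2 and 585 ± 25.6 CPM (SD, n = 2 each). The log2 fold change was 0.67 (SE 0.17, 95% confidence interval 0.32 to 1.03, adjusted p = 0.0036), a 1.596-fold rise. Without sham replicate 2 the rise was 0.57 and was not called (adjusted p = 0.114). The exons of Itga7 overlap Mettl7b on the other strand, which had 0 UMIs in 3 libraries and 1 UMI in overloaded replicate 2, so that few reads were assigned to the partner, but the strand setting of the counting is not stated.

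Itga6 and Itga3 encode the other laminin-binding alpha chains, and both had few UMIs in sham MuSCs. Itga6 (chr2:71745616-71858416, plus strand, 26 exons) had 1 and 4 UMIs in sham and 20 and 19 in overloaded libraries, or 11.2 ± 9.74 against 45.2 ± 9.56 CPM (SD, n = 2 each). Its log2 fold change was 1.97 (SE 0.57, 95% confidence interval 0.77 to 3.17, adjusted p = 0.0099). The sham libraries differed by more than their mean, and Itga6 passed the filter only through the overloaded libraries, so that it had to be higher there to be tested. Itga6 was not called without sham replicate 1 (1.25), without overloaded replicate 1 (1.78) or in DESeq2 (2.01, adjusted p = 0.151). Without sham replicate 2 its log2 fold change was 3.22. Itga3 (chr11:95044474-95076801, minus strand, 26 exons) had 2 and 1 UMIs in sham and 7 and 26 in overloaded libraries. It did not pass the filter, and its pooled ratio of overloaded to sham UMIs, scaled by library, was 5.64 with an exact 95% interval of 1.77 to 28.7 that covers counting error only. Overloaded replicate 2 held 26 of its 33 overloaded UMIs, and both overloaded libraries lay above both sham libraries.

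Itga5 encodes the alpha chain of the fibronectin receptor (chr15:103344286-103366763, minus strand, 31 exons), and it showed the largest fall among the tested integrin genes. It had 20 UMIs in each sham library and 14 and 15 in the overloaded libraries. These were 87.1 and 90.6 CPM in sham and 36.4 and 30.4 CPM in overloaded libraries, with no overlap. The means were 88.8 ± 2.51 and 33.4 ± 4.26 CPM (SD, n = 2 each), with a log2 fold change of -1.41 (SE 0.35, 95% confidence interval -2.16 to -0.67, adjusted p = 0.0039). Itga5 stayed called with each library left out in turn, between -1.51 and -1.23. In UMIs per tube it fell by 0.46 on the log2 scale and was not called (adjusted p = 0.346), so that the fall is one relative to the other transcripts of the library. In bulk tubes such as these, fewer cells that carry a transcript and less of it per cell cannot be told apart.

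Itgav encodes the alpha-v chain, which binds ligands with an RGD motif such as vitronectin, fibronectin and latent TGF-beta (chr2:83724397-83806916, plus strand, 30 exons). It had 56 UMIs in each sham library and 59 and 101 in the overloaded libraries. After scaling these were 244 and 254 CPM in sham and 153 and 205 CPM in overloaded libraries, all sham values above all overloaded ones. The means were 249 ± 7.02 and 179 ± 36.2 CPM (SD, n = 2 each), with a log2 fold change of -0.46 (SE 0.20, 95% confidence interval -0.89 to -0.03, adjusted p = 0.077), near the threshold. The call was lost without sham replicate 1 (adjusted p = 0.139), without sham replicate 2 (adjusted p = 0.195) and without overloaded replicate 1 (-0.26, adjusted p = 0.389). Scaling by library size alone gave -0.18 (adjusted p = 0.494), and DESeq2 gave -0.47 (adjusted p = 0.374). The exons of Itgav overlap Gm13684 on the other strand, which was not analysed here, and with the strand setting not stated their reads cannot be told apart.

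Itgb5 and Itgb3, whose chains pair with alpha-v as the beta-1 chain also does, were low. Itgb5 (chr16:33829665-33949338, plus strand, 15 exons) had 5 and 12 UMIs in sham and 12 and 19 in overloaded libraries, or 38.1 ± 23.0 against 34.8 ± 5.14 CPM (SD, n = 2 each). The overloaded values lay between the sham values, and the log2 fold change was -0.10 with a 95% confidence interval of -1.05 to 0.86 (SE 0.45, adjusted p = 0.879). Changes within that interval were compatible with these libraries. Itgb3 (chr11:104608000-104670476, plus strand, 15 exons) had 1 UMI in each sham library, 0 in overloaded replicate 1 and 2 in overloaded replicate 2, which is under the floor of 3 counts per group in both.

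Itga4 and Itga9, whose chains bind VCAM1 and, for Itga9, tenascin-C, were the other low alpha genes. Itga4 (chr2:79255426-79333123, plus strand, 28 exons) had 1 and 0 UMIs in sham and 8 and 10 in overloaded libraries, all of the latter above the former. It was not tested, and its scaled ratio was 9.23 with an exact 95% interval of 1.46 to 385. Its exons overlap Cerkl on the other strand, which had 0 and 2 UMIs in sham and 3 and 1 in overloaded libraries. Itga9 (chr9:118606690-118901003, plus strand, 28 exons) had 0 UMIs in both sham libraries and 1 and 2 in the overloaded libraries, at the floor of 3 counts, so that no fold is given. In a fit without the filter Itga3 (2.49, adjusted p = 0.0035) and Itga4 (3.08, adjusted p = 0.017) were called higher, whereas DESeq2 on all genes of the file called neither (2.44, adjusted p = 0.145, and 3.22, adjusted p = 0.232).

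**Figure D2:**
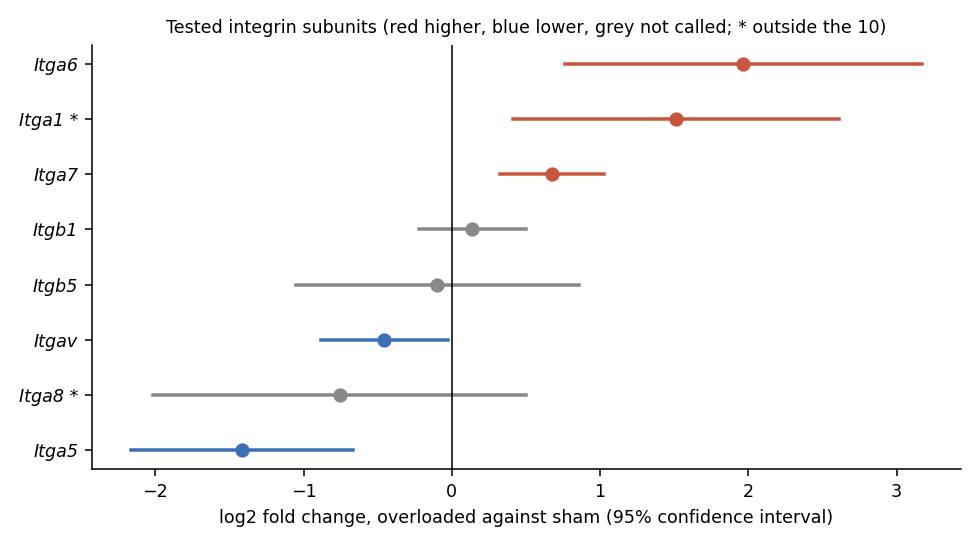
Log2 fold change of overloaded against sham for the integrin genes that passed the filter, with 95% confidence intervals (bars) from edgeR's quasi-likelihood fit of 2 against 2 libraries. Itga6, Itga1 and Itga7 are called higher (red), Itgav and Itga5 lower (blue, Itgav rising to 0.51 without scaling), and the intervals of Itgb1, Itgb5 and Itga8 (grey) span 0. Itgb6, whose fold over 0 sham UMIs can only be given as a lower bound, is left out, and asterisks mark genes outside the 10.

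Levels within the family were then compared in UMIs, which count transcripts without a term for length, although capture of each 3′ end may differ between genes. A share within 1 library does not depend on how libraries are scaled against each other. Among the UMIs of the 7 alpha genes (168 and 158 in sham, 341 and 453 in overloaded libraries), Itga7 came first, Itgav next and Itga5 after it in both sham libraries. The share of Itga7 was 52.4% (Wilson 95% interval 44.9 to 59.8) and 48.7% (41.1 to 56.5) in sham. It was 68.0% (62.9 to 72.8) and 61.8% (57.3 to 66.2) in overloaded libraries, above both sham shares. The intervals of the 2 overloaded libraries were clear of the interval of sham replicate 2, and that of overloaded replicate 2 reached into that of sham replicate 1.

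The share of Itgav went the other way, from 33.3% (26.6 to 40.8) and 35.4% (28.4 to 43.2) in sham to 17.3% (13.7 to 21.7) and 22.3% (18.7 to 26.4) in overloaded libraries. The share of Itga5 was 11.9% (7.84 to 17.7) and 12.7% (8.35 to 18.7) in sham and 4.11% (2.46 to 6.77) and 3.31% (2.02 to 5.39) in overloaded libraries. For both genes the 2 overloaded intervals lay below the 2 sham intervals. Itga6, Itga3, Itga4 and Itga9 made up the rest, and in overloaded replicate 1 Itga6 (5.87%) and in overloaded replicate 2 Itga3 (5.74%) and Itga6 (4.19%) had larger shares than Itga5. These intervals cover counting error only, and the shares are given as a description with no test. An exact two-sided permutation test of 2 against 2 libraries cannot go below p = 0.333. The same shares are drawn in the plot of the alpha and beta pools.

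Itgb1 made up 95.1% and 88.9% of the UMIs of the 3 beta genes in sham and 95.1% and 91.8% in overloaded libraries, with overlapping groups. When all beta subunits of the file are counted, Itgb6 and Itgb8 included, Itgb1 made up 94.3% and 85.2% in sham and 84.0% and 77.9% in overloaded libraries. These shares no longer overlapped, but their Wilson 95% intervals did. The interval of sham replicate 2 (77.9 to 90.5) overlapped those of overloaded replicate 1 (79.2 to 87.9) and overloaded replicate 2 (72.9 to 82.2). That of sham replicate 1 (88.7 to 97.2) lay above both overloaded intervals. In the pool of all alpha subunits Itga7 had 48.1% and 44% in sham and 61.2% and 57.1% in overloaded libraries. Per UMI of Itgb1 there were 0.759 and 0.740 UMIs of Itga7 in sham and 1.004 and 1.19 in overloaded libraries. The ratio of Itga5 to Itgb1 was 0.172 and 0.192 in sham and 0.0606 and 0.0636 in overloaded libraries. Set against each other, Itga7 had 4.40 and 3.85 UMIs per UMI of Itga5 in sham and 16.6 and 18.7 in overloaded libraries. This ratio restates the rise of the one transcript and the fall of the other within each library. All 10 genes together had 1262 and 1246 CPM in sham and 1518 and 1438 CPM in overloaded libraries.

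**Figure D3:**
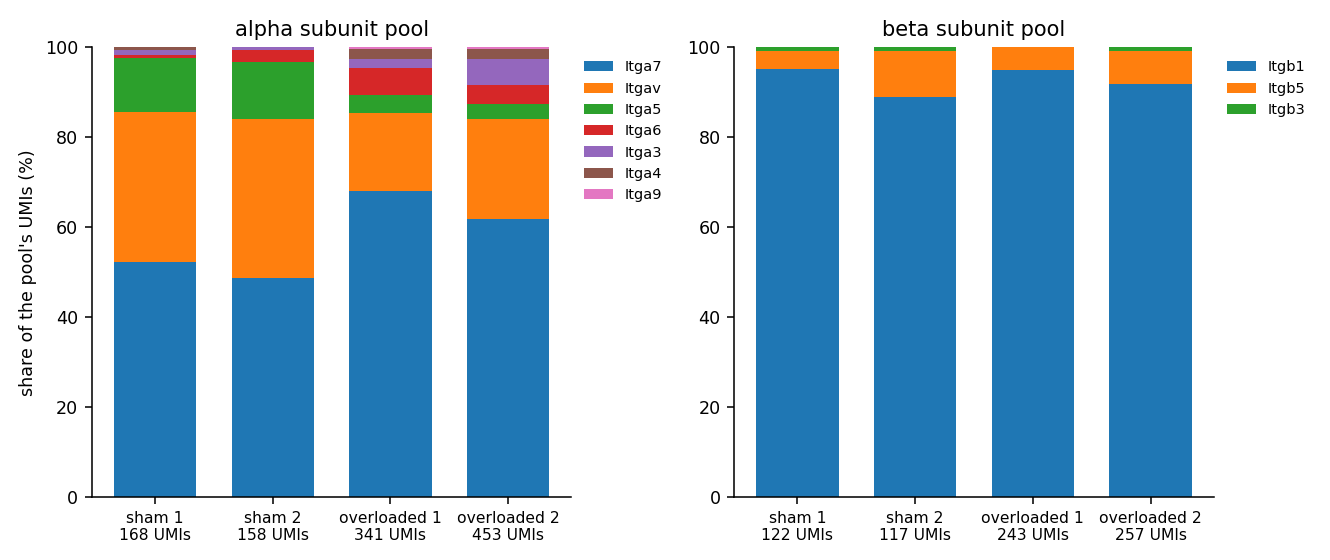
Share (%) of each gene among the UMIs of the 7 alpha genes (left) and the 3 beta genes (right) in each library, with the UMIs of the pool under each bar. Itga7 takes 48.7 to 52.4% of the alpha pool in sham and 61.8 to 68.0% in overloaded libraries, Itga5 and Itgav take less there, and Itgb1 takes 88.9 to 95.1% of this pool of 3 beta genes in every library (77.9 to 94.3% of all beta subunits).

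The fold changes were also read against genes of like abundance, because the median log2 fold change ran from 1.12 in the lowest decile of tested genes by level (decile 1) to -0.77 in the highest (decile 10). Itga7 (0.67) and Itgb1 (0.14) both lay in decile 10, and Itgav (-0.46) lay in decile 9, whose median was -0.38. Itga5 (-1.41) lay in decile 4, with a median of 0.25, Itgb5 (-0.10) in decile 2, with a median of 0.36, and Itga6 (1.97) in decile 1. Offsets that remove this trend gave 1.39 for Itga7, 0.89 for Itgb1 and -1.59 for Itga5, all called, and 0.55 (adjusted p = 0.551) for Itga6 and -0.17 (adjusted p = 0.553) for Itgav. Itgb1 was thus called higher only relative to genes of its own abundance, in UMIs per tube (1.09), under library sizes alone (0.41, adjusted p = 0.040) and without overloaded replicate 2.

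The scaling shifted all genes together. The median log2 fold change of all genes tested was 0.05 with TMM, 0.15 with upper-quartile factors, 0.33 with library sizes alone and 1.01 in UMIs per tube. Relative to that median, Itga7 was at 0.62 and Itgb1 between 0.07 and 0.09 under all 4 scalings, Itga5 at -1.47 and Itgav between -0.51 and -0.50. The number of genes called higher and lower was 1868 and 1898 with TMM, 2694 and 1351 with library sizes alone, and 4481 and 331 in UMIs per tube.

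**Figure D4:**
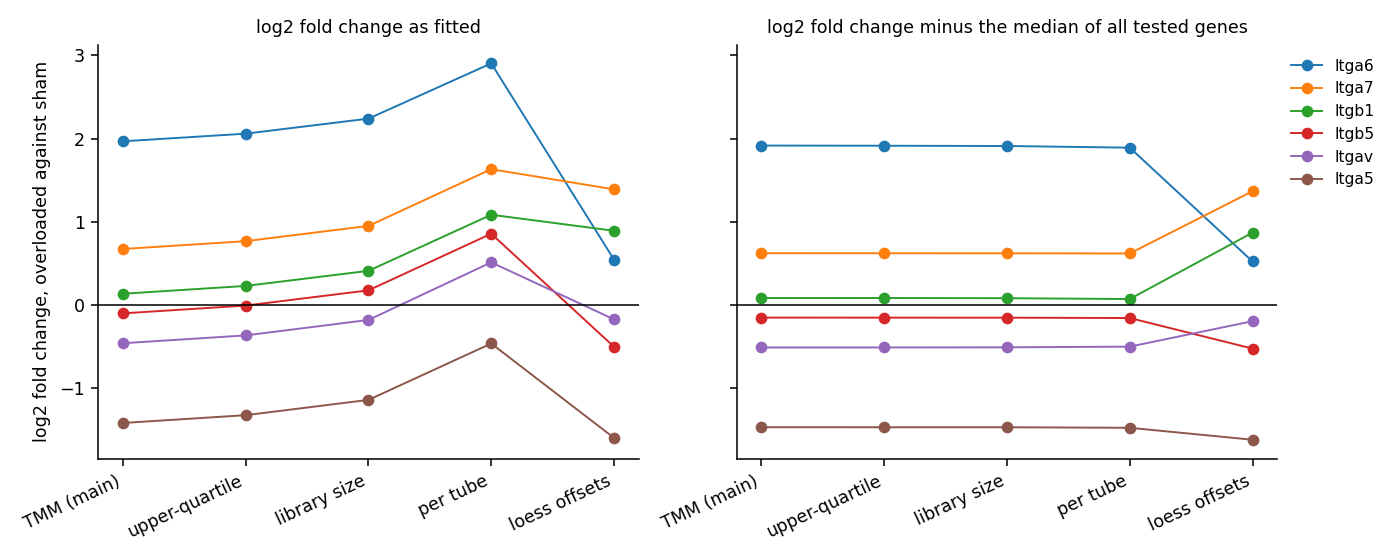
Log2 fold change of the 6 tested integrin genes under 5 ways of scaling the libraries (horizontal axis), as fitted (left) and minus the median of all genes tested (right). Itga7 and Itga6 stay above 0 and Itga5 below 0 under all 5, while Itgav and Itgb5 change sign with the scaling as fitted (0.51 and 0.86 in UMIs per tube) but not relative to the median.

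Of 16 other integrin subunit genes listed, 13 had a row, 3 passed the filter, and 3 (Itgad, Itgae and Itgax) were not analysed here. Itga1, a collagen-binding chain, had 2 and 4 UMIs in sham and 14 and 20 in overloaded libraries, and it rose (log2 fold change 1.51, SE 0.52, adjusted p = 0.026). Itgb6, a partner of alpha-v, had 0 UMIs in both sham libraries and 12 and 20 in overloaded libraries, at least 5.47-fold higher when sham is set to the floor of 3 UMIs over both libraries (adjusted p = 3e-04). Both passed the filter only through the overloaded libraries, and neither was called with offsets by abundance, where Itga1 was at 0.16 (adjusted p = 0.872) and the fitted value of Itgb6 was 6.09 (adjusted p = 0.171) against 6.61 with TMM. Itga1 was also not called in DESeq2 (adjusted p = 0.293), without sham replicate 1 or without overloaded replicate 1.

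Itga8, which binds nephronectin, had 4 and 10 UMIs in sham and 12 and 4 in overloaded libraries, with overlapping groups (-0.76, adjusted p = 0.320), and it was called lower with offsets by abundance (-2.21, adjusted p = 0.0081). Itgb8, another partner of alpha-v, had 0 and 3 UMIs in sham and 11 and 13 in overloaded libraries. Its scaled ratio was 4.10 (exact interval 1.25 to 21.3), and its log2 fold change was 0.96 without sham replicate 1 and 6.35 without sham replicate 2. In edgeR it was called higher without the filter (2.06, adjusted p = 0.033) and with 10 counts in every library of 1 group (1.91, adjusted p = 0.033). DESeq2 on all genes of the file did not call Itgb8 (2.04, adjusted p = 0.270). Sham replicate 2 held all of its sham UMIs. Itgb4, the partner of the alpha-6 chain in epithelia, had 1 and 0 UMIs in sham and 7 and 6 in overloaded libraries (6.67, exact interval 1.001 to 283). The edgeR fit without the filter called Itgb4 higher (log2 fold change 2.63, adjusted p = 0.095), near the threshold. Subunits of other lineages were scarce. The platelet subunit Itga2b had 6 and 2 UMIs in sham and 5 and 9 in overloaded libraries. The leukocyte subunits were at 0 and 1 UMIs in sham and 1 and 6 in overloaded libraries for Itgb2, at 1, 0, 2 and 3 for Itgam in the same order, at 1, 1, 1 and 0 for Itgal, and at 0, 1, 1 and 1 for Itgb7. The collagen-binding chains Itga2, Itga10 and Itga11 had at most 2 UMIs in any library.

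Proteins that activate integrins or link them to actin did not move one way. Of 19 tested genes of 25 listed, 6 were called higher and 4 lower, against 25.8% higher and 26.3% lower of all genes tested, with a median log2 fold change of -0.01. Talins bind the beta tail and switch integrins on, and the 2 talin genes, named after their values were seen, went in opposite directions. Tln1 had 38 and 34 UMIs in sham and 103 and 137 in overloaded libraries and rose (0.77, adjusted p = 0.0043), and Tln2 had 78 and 70 in sham and 84 and 89 in overloaded libraries and fell (-0.73, adjusted p = 0.0042). Fermt2, the kindlin that works with talin, had 92 and 100 UMIs in sham and 101 and 124 in overloaded libraries and fell (-0.73, adjusted p = 0.0023). Without scaling no gene of this list was called lower and 13 were called higher, against 331 and 4481 of all 7228 genes tested. The UMIs per tube of Tln2 and Fermt2 were no lower in the overloaded libraries.

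The alpha-actinins, which crosslink actin at adhesions, also parted. Actn4 had 100 and 90 UMIs in sham and 111 and 118 in overloaded libraries (-0.68, adjusted p = 0.0044), and Actn1 had 58 and 62 in sham and 150 and 165 in overloaded libraries (0.44, adjusted p = 0.060). Tensins tie the beta tail to actin in mature adhesions, and among genes with a mean of at least 20 counts Tns3 showed the largest rise of the list and Tns2 the largest fall. Tns3 had 5 and 1 UMIs in sham and 45 and 103 in overloaded libraries (3.61, SE 0.50, adjusted p = 2.8e-05), whereas Tns2 had 36 and 38 in sham and 20 and 33 in overloaded libraries (-1.44, SE 0.27, adjusted p = 0.00042). Tns3 passed the filter only through the overloaded libraries, as did Parvb, a parvin of the adhesion complex, which had 0 UMIs in both sham libraries and 23 and 35 in overloaded libraries, at least 9.91-fold higher (adjusted p = 4.7e-05). Parvb is named after its values were seen.

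Of 19 tested kinase and adaptor genes of 22 listed, 2 were called higher and 5 lower, beside the same shares of 25.8% and 26.3% for all genes tested, with a median of -0.18. Cdc42, a GTPase that shapes the actin cytoskeleton, had the most UMIs of the list, with 180 and 157 in sham and 233 and 306 in overloaded libraries and was not called (-0.29, adjusted p = 0.148). Rap1b, a GTPase that recruits talin, had 119 and 99 UMIs in sham and 112 and 122 in overloaded libraries, and it fell (-0.85, adjusted p = 0.00083). The p21-activated kinases went apart, with Pak1 (18, 12, 71 and 92 UMIs) higher by 1.47 (SE 0.27, adjusted p = 0.00029) and Pak2 (67, 63, 80 and 74 UMIs) lower (-0.71, adjusted p = 0.0092), where the sham libraries stand first. In UMIs per tube 11 genes of this list were called higher and 0 lower, against 4481 and 331 of all 7228 genes tested. With each library left out in turn, fewer genes of this list were called lower. Ptk2, the focal adhesion kinase, named after its values were seen, had 18 UMIs in each sham library and 34 and 42 in overloaded libraries (0.12, adjusted p = 0.781).

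Of 8 tested genes of 15 that inactivate or recycle integrins, 1 was called higher and 1 lower (all genes tested, 25.8% and 26.3%), with a median of 0.28. Rab11a, a GTPase of the slow recycling route, had 22 and 18 UMIs in sham and 51 and 75 in overloaded libraries (0.69, adjusted p = 0.040). Rab21, which carries beta-1 integrins into endosomes, had 64 and 73 UMIs in sham and 71 and 91 in overloaded libraries (-0.72, adjusted p = 0.0047). Arf6, a GTPase of endocytic recycling, had 63 and 75 UMIs in sham and 101 and 135 in overloaded libraries and was not called (-0.19, adjusted p = 0.411). In UMIs per tube 6 genes of this list were called higher and 0 lower, against 4481 and 331 of all 7228 genes tested. The number of its genes called changed with the library left out.

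Membrane proteins that associate laterally with integrins had a median of -0.42, with 4 called higher and 8 lower of 15 tested genes, where 25.8% and 26.3% of all genes tested were called. The median over all genes was -0.38 in abundance decile 9 and -0.77 in decile 10. The tetraspanin Cd63 had 367 and 336 UMIs in sham and 443 and 438 in overloaded libraries and fell (-0.62, adjusted p = 0.0063). The heparan sulfate proteoglycan Sdc4, a co-receptor of fibronectin receptors and a satellite cell marker, had 422 and 284 UMIs in sham and 375 and 345 in overloaded libraries and fell (-0.91, adjusted p = 0.0012). Emp1, a tetraspan membrane protein, had 258 and 236 UMIs in sham and 188 and 274 in overloaded libraries and fell (-1.07, adjusted p = 4.9e-05). The largest fall was that of Plaur, the urokinase receptor, with 33 and 28 UMIs in sham and 18 and 20 in overloaded libraries (-1.63, SE 0.31, adjusted p = 0.00046). Sdc1, another syndecan, had 24 and 11 UMIs in sham and 55 and 71 in overloaded libraries and rose (0.88, SE 0.30, adjusted p = 0.023). Cd151, the tetraspanin partner of laminin-binding integrins and named after its values were seen, had 59 and 36 UMIs in sham and 111 and 151 in overloaded libraries (0.50, adjusted p = 0.060). In UMIs per tube 10 genes of this list were called higher and 0 lower, against 4481 and 331 of all 7228 genes tested. With each library left out in turn, fewer genes of this list were called higher.

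Laminin chains, the ligands of Itga7, Itga6 and Itga3, had UMIs in the tubes of sorted cells, and which cells these came from was not tested. Of 5 tested genes of 11, 1 was called higher and 2 lower (all genes tested, 25.8% and 26.3%), with a median of -0.35. Lama2, the heavy chain of muscle basal lamina, had 56 and 67 UMIs in sham and 68 and 49 in overloaded libraries and fell (-1.02, SE 0.25, adjusted p = 0.0030). Lamc1, the common gamma chain, had 107 and 96 UMIs in sham and 112 and 160 in overloaded libraries and fell (-0.55, adjusted p = 0.014), whereas Lamb1 had 25 and 19 in sham and 65 and 71 in overloaded libraries and rose (0.67, adjusted p = 0.040). Lamb2, a beta chain of muscle basal lamina, had 37 and 38 UMIs in sham and 37 and 79 in overloaded libraries and was not called (-0.35, adjusted p = 0.286). Without scaling 2 laminin genes were called higher and 0 lower, against 4481 and 331 of all 7228 genes tested. The call of Lamb1 was not kept in every fit with a library left out.

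Ligands of the fibronectin-binding, RGD-binding and VCAM1-binding chains held the largest rises among the integrin-related lists. Of 15 tested genes of the 18 with a row, 5 were called higher and 4 lower, near the 25.8% and 26.3% of all genes tested, with a median of -0.17, and 5 were called higher with each library left out in turn. Spp1, which encodes osteopontin, had 0 UMIs in both sham libraries and 179 and 165 in overloaded libraries, at least 58.8-fold higher by the same floor (adjusted p = 1.2e-07). Fn1, Tnc and Postn, which encode fibronectin, tenascin-C and periostin, are named after their values were seen. Fn1 had 1 and 3 UMIs in sham and 94 and 99 in overloaded libraries (4.58, SE 0.42, adjusted p = 4.6e-07), and Tnc had 8 and 2 in sham and 81 and 109 in overloaded libraries (3.26, SE 0.36, adjusted p = 2.7e-06). Postn had 0 UMIs in both sham libraries and 59 and 41 in overloaded libraries, at least 17.1-fold higher. All 4 passed the filter only through the overloaded libraries, so that they had to be high there.

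The fifth ligand gene called higher was Npnt, which encodes nephronectin, with 0 and 2 UMIs in sham and 15 and 50 in overloaded libraries (3.93, SE 0.82, adjusted p = 0.00097), and it too is named after its values were seen. It also passed the filter only through the overloaded libraries. The other tested ligands fell or were not called. Thbs2, a thrombospondin, had 41 and 45 UMIs in sham and 19 and 24 in overloaded libraries, the largest fall of the list (-1.96, SE 0.27, adjusted p = 2.3e-05). Vcam1, a ligand of the chains of Itga4 and Itga9 and itself a satellite cell marker, had 209 and 175 UMIs in sham and 184 and 215 in overloaded libraries and fell (-0.90, SE 0.16, adjusted p = 0.00027). Of the matricellular genes, Ccn1 fell (101, 116, 146 and 176 UMIs, -0.39, adjusted p = 0.068) and Ccn2 was not called (105, 85, 160 and 167 UMIs, -0.17, adjusted p = 0.464). In UMIs per tube 10 ligand genes were called higher and 1 lower, against 4481 and 331 of all 7228 genes tested. The plot of the lists shows the spread of each.

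**Figure D5:**
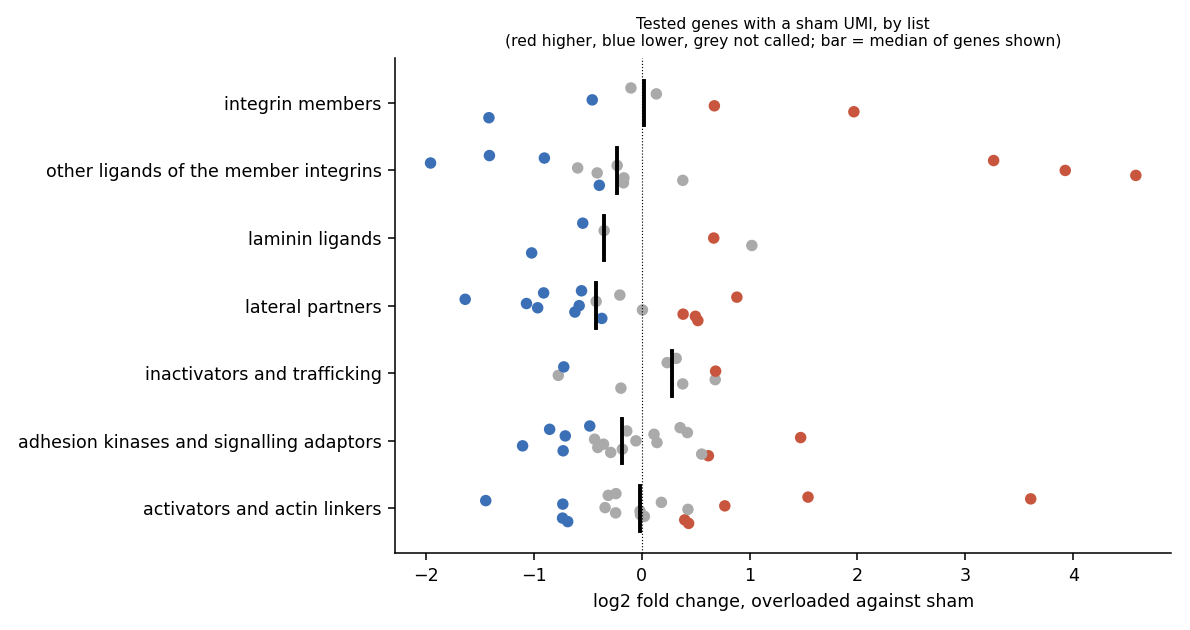
Log2 fold change of overloaded against sham for each tested gene of 7 lists, with 1 point per gene (red called higher, blue lower, grey not called) and a bar at the median of the points shown. Genes with 0 sham UMIs (Parvb, Spp1 and Postn) are left out, Fn1 lies farthest right at 4.58, and the median of the lateral partners is -0.42. Without scaling by library 331 of all 7228 genes tested were called lower. No gene of the integrin, laminin, partner, trafficking, kinase and linker lists was among them.

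Markers of other cell types moved in the same libraries, and their part in the integrin values was not tested. The 16 leukocyte markers summed to 4 and 9 UMIs in sham and 83 and 223 in overloaded libraries, or 17.4, 40.8, 216 and 452 CPM. Lyz2, the most abundant, had 0 UMIs in sham and 17 and 38 in overloaded libraries, and Adgre1, Csf1r, C1qa, C1qb, Tyrobp, Fcer1g, Cd52 and Cd74 were likewise at 0 in both sham libraries. Lyz2 and Cd74 were the 2 that passed the filter, which they could do only through the overloaded libraries. Both were called higher, as were 25.8% of all genes tested. Itga4, expressed by leukocytes as well as myogenic cells, had 1, 0, 8 and 10 UMIs in the same order.

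The 9 myofibre markers with a row summed to 1828 and 1028 CPM in sham and to 3341 and 3119 CPM in overloaded libraries. All 7 tested were called higher (25.8% of all genes tested), Myh4 having passed the filter only through the overloaded libraries. Fewer of these markers were called with certain libraries left out. Their most abundant gene, Acta1, had 120 and 66 UMIs in sham and 299 and 342 in overloaded libraries, and Myh1 and Myh2 were at 0 in sham. Itga7, which myofibres also express, had 383, 349, 603 and 567 CPM in the same libraries. The 10 fibro-adipogenic markers summed to 4414 and 4177 CPM in sham and 4282 and 3702 CPM in overloaded libraries, with Col3a1 (508, 461, 618 and 683 UMIs) the most abundant, 2 called higher and 3 lower of 6 tested (all genes tested, 25.8% and 26.3%), and the defining Pdgfra at 0, 0, 2 and 0 UMIs and Cd248 at 0 in sham. The 2 called higher, named after their values were seen, were Col1a2 (74, 55, 426 and 465 UMIs, 1.84) and Ly6a (1, 0, 22 and 41 UMIs, 4.79), the latter having passed the filter only through the overloaded libraries. The 3 called lower, named likewise, were Dpt (131, 126, 82 and 104 UMIs, -1.43), Col3a1 (-0.53) and Dcn (85, 93, 125 and 141 UMIs, -0.38). The 8 mural markers summed to 1532 and 1436 CPM in sham and 1576 and 1719 CPM in overloaded libraries, with Acta2 (115, 109, 356 and 493 UMIs) the most abundant, Myh11 at 0, 0, 0 and 3 UMIs, and 2 called higher and 2 lower of 4 tested, beside the same shares of all genes.

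The 10 endothelial markers summed to 131 and 99.7 CPM in sham and 148 and 146 CPM in overloaded libraries, with Egfl7 and Cldn5 at 0 in sham. Tek (10, 12, 5 and 11 UMIs), the most abundant over the 4 libraries, passed the filter only through sham and was called lower (-1.41). Other members, named after their values were seen, were Cdh5 at 3, 1, 14 and 11 UMIs and Pecam1 at 4, 2, 11 and 7, neither tested. In CPM the groups were separate for Cdh5 and overlapped for Pecam1 (17.4, 9.06, 28.6 and 14.2). Flt1 (9, 4, 4 and 18 UMIs) was tested and not called (-0.21, adjusted p = 0.792). Platelet markers summed to 8, 5, 16 and 30 UMIs, with Pf4 at 0, 0, 11 and 20 and Gp1bb at 0 in sham, and none was tested. The other members did not move with Pf4. Ppbp was at 2, 2, 0 and 0 UMIs, Nrgn at 0, 1, 0 and 0, and Itga2b at 6, 2, 5 and 9 with overlapping groups. Of the 10 satellite cell markers, all tested, 6 fell, Cdh15 rose (0.47) and 3 were not called, where 26.3% of all genes tested fell and 25.8% rose. The 6 that fell, named after their values were seen, were Calcr (-2.60), Cd34 (-1.95), Chodl (-1.76), Sdc4 (-0.91), Vcam1 (-0.90) and Pax7 (-0.84). The 10 markers summed to 6991 and 6224 CPM in sham and to 4774 and 4157 CPM in overloaded libraries. Under the alternatives that kept all 4 libraries, 3 to 7 of these markers were called lower and 0 to 4 higher. In the same fits 331 to 1967 of all genes tested were called lower and 762 to 4481 higher. The 6 cycling markers summed to 4 and 10 UMIs in sham and to 428 and 534 in overloaded libraries, with Top2a the most abundant at 2, 6, 124 and 176 UMIs and Ccnb1 at 0 in sham. All 6 were called higher (25.8% of all genes tested), having passed the filter only through the overloaded libraries. The integrin genes were measured in tubes that differed in the level of these cycling genes as well as in surgery, and an effect of either cannot be told apart here.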

How the data were processed

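RNA-seq was made by CEL-Seq2 from tubes of 100 sorted MuSCs, with 2 sham and 2 overloaded libraries. The authors extracted barcodes and UMIs with UMI-tools 1.0.0, aligned reads to GRCm38 with HISAT2 2.1.0, assigned them to genes with featureCounts 1.6.4 and collapsed UMIs by the directional method, and they deposited UMI counts per gene without normalization. The strand setting and the annotation release are not given in the sources used here. The study's own test was DESeq2 1.22.2 at an adjusted p of 0.1.

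Counts were used as deposited. In R 4.3.3, edgeR 4.0.16 scaled libraries by TMM and kept 7228 of 19353 genes by filterByExpr (minimum count 10, minimum total 15). The fit was by glmQLFit and glmQLFTest, with Benjamini-Hochberg adjustment over the genes kept, a threshold of 0.1 and a prior count of 0.125. Both groups shared 1 estimate of the spread, with a common biological coefficient of variation of 9.50%. An unadjusted p under 0.05 was found for 3732 genes. Shares have Wilson intervals and ratios of counts exact (Clopper-Pearson) ones of 95%. These and the floor of 3 counts cover counting error only. Libraries of 260488 to 483528 UMIs limit the precision of genes with few counts. Sham libraries differed more than sampling noise (chi-square over its degrees of freedom 1.36), as did overloaded ones (1.57). Scripts were tested on simulated data.

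All 19353 gene identifiers were in GENCODE release M21 (GRCm38), which gave positions, and promoters came from RefSeq (GRCm38.p6). DESeq2 1.42.0, limma-voom (limma 3.58.1), Python 3.11.15, numpy 2.4.6, pandas 2.3.3, scipy 1.17.1 and matplotlib 3.10.9 were also used. The integrin genes and all lists were chosen with earlier results of these data known. The text names all integrin subunits. In each other list it names the 3 genes with the most UMIs and, among those with a mean of at least 20 counts, the called gene with the largest rise and the one with the largest fall. In marker lists it names the most abundant gene and those at 0, and 1 marker list is not reported here. Alternatives were other scalings, tests, filters and thresholds, loess offsets by abundance (span 0.3), thinning to 260488 UMIs, a replicate block and each library left out in turn.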

Additional observations from a re-analysis of the deposited data

How the results depend on the processing

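The number of genes called higher (1868) and lower (1898) became 4481 and 331 in UMIs per tube, 762 and 1049 in DESeq2 and 967 and 1215 in DESeq2 on all genes of the file, which was chosen after seeing the data. With a library left out, which leaves 1 group with a lone library assumed to vary like the others, they were 1360 to 1668 and 1489 to 1720. Of the integrin genes, 2 were called higher. The number was 1 in both DESeq2 runs and with counts thinned to the smallest library. It was 4 without the filter and 3 with library sizes alone and in UMIs per tube. With a library left out, the genes called higher were not the same ones. Itga3, untested with all 4 libraries, was then tested and called higher without sham replicate 1 (log2 fold change 2.91), without sham replicate 2 (2.01) and without overloaded replicate 1 (2.93). The number called lower was 2, but 1 with library sizes alone, upper-quartile factors, loess offsets, both DESeq2 runs, no filter, a threshold of 0.05 and thinned counts, 0 in UMIs per tube, and 1 to 2 with a library left out. Itga7 and Itga5 were each called in 16 of 17 alternatives, the exceptions being sham replicate 2 left out for Itga7 and UMIs per tube for Itga5. Itga6 was called in 11 of 16 and Itgav in 5 of 17.

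Signs turned for Itgav in UMIs per tube (0.51), for Itgb1 without overloaded replicate 1 (-0.0086), for Itgb5 with library sizes alone (0.18), UMIs per tube (0.86), thinned counts (0.17), without sham replicate 2 (0.65) and without overloaded replicate 1 (0.05), and for Itga8 in UMIs per tube (0.19), without sham replicate 2 (0.057) and without overloaded replicate 2 (0.044). With a library left out, Itgb1 ranged from -0.0086 to 0.34, Itgb5 from -0.66 to 0.65 and Itga8 from -1.87 to 0.057. In UMIs per tube and with library sizes alone all genes shifted together, and relative to the median of all genes Itgb5 stayed at -0.15 in both, and Itgav was at -0.50 and Itga8 at -0.82 in UMIs per tube. For the other turns the cause was not tested. A filter planned as stricter, of 10 counts in every library of 1 group, kept 7572 genes.

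Libraries of the same replicate number did not deviate together from their group means (correlation of deviations -0.03 over 7228 genes). With 2 libraries per group and counting noise in each gene, this cannot show whether the libraries were paired. In other experiments of the paper the sham muscle was the contralateral one, and whether sham and overloaded libraries shared mice is not stated. A fit with the replicate number as a block called 1806 genes higher and 1864 lower and 2 integrin genes each way.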
